A study of Mus musculus with 12 samples.

Results

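Genes for lysosomal hydrolases and membrane proteins were followed as a list of 41 genes in 3 mouse breast cancer lines after knockdown of Nrf2. The list holds acid hydrolases, the membrane and cholesterol-handling proteins of the lysosome, progranulin and the transcription factor Tfeb. Its genes share a known function, but they were chosen with earlier results of these data known. All 41 were found among the 24454 Entrez gene IDs of the table, and 39 reached a CPM (reads of a gene scaled to a library total of 1000000) of at least 1 in at least 2 of the 12 libraries, the filter that 12502 genes passed. The other 2 were the cathepsins Ctss, known from antigen-presenting cells, and Ctsk, known from osteoclasts. Ctss was at 0 in every library, where 3 reads would be 0.0809 to 0.111 CPM, and Ctsk lay between 0.0341 and 0.320 CPM. Ctsh and Idua were close to the filter, with at least 1 CPM in 11 and 9 libraries, and the other 37 members had at least 1 CPM in all 12.

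PyMT-1099 LT and Py2T LT were taken from mammary tumours of MMTV-PyMT mice, in which the mammary tumour virus promoter drives the polyoma middle T antigen, and MT∆Ecad from those of MMTV-Neu mice, in which it drives the Neu receptor; by its name MT∆Ecad lacks E-cadherin, and the labels do not say what LT stands for. The 6 groups are siNrf2, cells of a line that had received Dharmacon siRNA to Nrf2 for 48 hours, and siCtl, cells of the same line given a Dharmacon control siRNA without that target, with 2 biological replicates each. The siCtl cells thus carry an siRNA too, and each line stands for itself alone, so the tests speak of these lines only. The comparison asks how the RNA of the lysosome's parts changes when the antioxidant factor Nrf2 is lowered.

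Lysosomes are acidic organelles in which many kinds of hydrolase break down proteins, glycans and lipids delivered by endocytosis and autophagy. Most hydrolases are made in the endoplasmic reticulum, tagged with mannose 6-phosphate and sorted to the lysosome, while heavily glycosylated membrane proteins such as Lamp1 and Lamp2 line its limiting membrane. Many of these genes share promoter elements around the E-box CACGTG that are bound by Tfeb and its relatives. Nrf2 itself, encoded by Nfe2l2, binds other elements, in which TGACNNNGC is the core, and drives genes of glutathione and thioredoxin metabolism.

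Nfe2l2, the gene hit by the siRNA, was lowered in each line. It had 25.7 and 33.3 CPM with siNrf2, against 113.1 and 113.0 CPM with siCtl, in PyMT-1099 LT. In Py2T LT Nfe2l2 stood at 21.9 and 24.5 CPM with siNrf2, against 89.7 and 83.6 CPM with siCtl, and in MT∆Ecad at 50.8 and 54.0 CPM with siNrf2, against 208 and 209 CPM with siCtl. Between 25.2% and 26.8% of the siCtl level was thus left. The libraries held 27088970 to 37070635 reads, so that 1 CPM stands for 27.1 to 37.1 reads. All 9 mesenchymal markers passed the filter, among them Fn1 with 5248 to 10206 CPM and Vim with 1489 to 5534 CPM. Not all were present in each line: Twist1 was at 0 in PyMT-1099 LT, and Acta2 had at most 0.195 CPM in Py2T LT. The epithelial cadherin Cdh1 lay between 0.315 and 0.639 CPM in MT∆Ecad and between 12.5 and 18.1 CPM in Py2T LT. It reached 62.1 CPM in PyMT-1099 LT. Py2T LT had 130 to 234 CPM of Cldn4, 16.7 to 30.8 of Epcam and 9.99 to 17.8 of Esrp1, the highest of the lines. Esrp2 and Krt18 were highest in PyMT-1099 LT. The keratin Krt8 lay between 769.96 and 2139 CPM.

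The promoters of the members were read first, because the E-box is what lysosome genes are known to share. RefSeq promoters of the GRCm38.p6 build, 250 bases before to 50 bases after a start, were found for 34 of the 39 members, in 39 promoters; Asah1, Ctsb, Ctsh, Npc1 and Plbd2 were not matched. The E-box CACGTG, which reads the same on both strands, stood in 11 of the 39 promoters (28.2%), against 9.93% of the 12682 promoters of all tested genes. Its longer form TCACGTGA, which contains CACGTG, stood in 4 (10.3%, against 1.87%). The longest form searched, TCACGTGA with a G before it and a C after it, stood in 0 of the 39, against 0.678% of all promoters. That form is so rare that 39 promoters cannot show whether members differ in it. TGACNNNGC, searched on both strands, stood in 8 of the 39 (20.5%), against 14.2% of all promoters, and overlapped with CACGTG in 0 of them. Among members that passed the test on the average of the 3 lines, given further on, 8 of 25 promoters held CACGTG (32%), against 3 of 14 promoters (21.4%) of members that did not. These are matches of letters and not measured binding. Windows of 5 members that passed that test are printed here as examples of E-boxes near a start, 5′ to 3′ and cut at the start of transcription; the capitals mark CACGTG.
Lamp1 (chr8:13159080-13159160, plus strand): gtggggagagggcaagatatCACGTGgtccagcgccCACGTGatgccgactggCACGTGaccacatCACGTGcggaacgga
Mcoln1 (chr8:3500428-3500499, plus strand): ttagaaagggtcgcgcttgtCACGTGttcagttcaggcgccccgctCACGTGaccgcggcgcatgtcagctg
Ctsd (chr7:142387900-142387945, minus strand): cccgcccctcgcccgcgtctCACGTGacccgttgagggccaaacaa
Glb1 (chr9:114401010-114401055, plus strand): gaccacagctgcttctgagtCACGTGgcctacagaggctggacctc
Arsa (chr15:89477425-89477460, minus strand): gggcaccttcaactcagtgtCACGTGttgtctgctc
Lamp1 has 4 copies of CACGTG within this window, the first starting 61 bases and the last 15 bases before the start. Mcoln1 has 2 copies, 71 and 45 bases before the start, and its second copy reads TCACGTGA, as does that of Ctsd, 98 bases before the start. The copies of Glb1 and Arsa begin 48 and 16 bases before the start. The other members with CACGTG were Ctsa, Lgmn and Gaa, with copies 12, 49 and 140 bases before the start, among those that passed the test, and Ctsl, Gla and Naglu among those that did not. The same promoter of Ctsd holds a further copy, 245 bases before the start and outside the window printed.

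The lines differed in their lysosome RNA before any Nrf2 was removed. The members together took 0.656% ± 0.0383 of the reads in MT∆Ecad siCtl libraries, 0.625% ± 0.0131 in Py2T LT and 0.504% ± 0.0169 in PyMT-1099 LT (SD, n = 2 each). Per kilobase of annotated exon, 3 members led in each line: Psap, the precursor of the saposins that help hydrolases reach sphingolipids, the membrane protein Lamp1 and the aspartic protease Ctsd. Psap had a mean of 355 CPM per kb in MT∆Ecad, 469 in Py2T LT and 256 in PyMT-1099 LT. Lamp1 had 323, 289 and 214 CPM per kb in the same order of lines, and Ctsd 317, 209.8 and 229. At the low end, Ctsh had 0.224 CPM per kb in MT∆Ecad, and Idua had 0.440 in Py2T LT and 0.158 in PyMT-1099 LT.

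**Figure D1:**
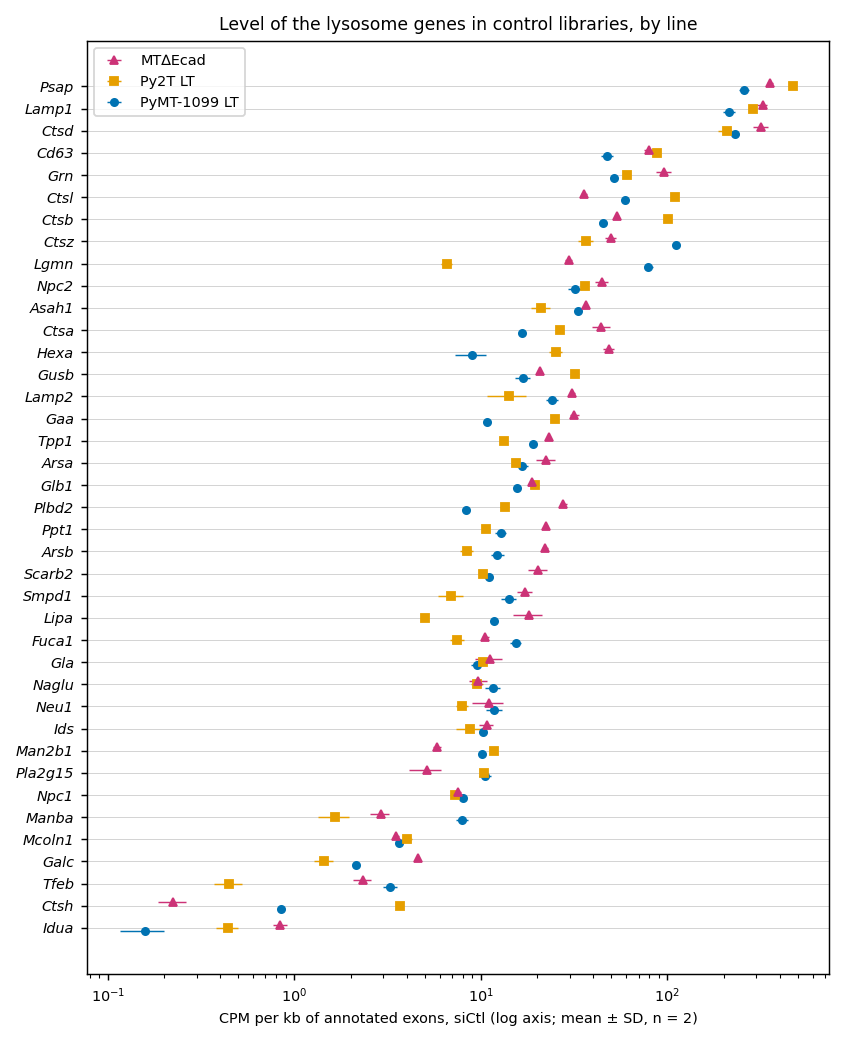
Level of each of the 39 members in siCtl libraries, in CPM per kilobase of annotated exons on a log axis, by line (points are means and bars SD over 2 libraries). Psap, Lamp1 and Ctsd are highest in each line, and Lgmn, Tfeb, Ctsh, Hexa and Manba are among the members whose lines lie far apart.

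Set against PyMT-1099 LT, 21 members were higher in MT∆Ecad siCtl cells and 8 lower, where 27% and 30.6% of all tested genes passed limma's test in these directions (53.8% and 20.5% of the members). Against Py2T LT, 24 members were higher in MT∆Ecad and 7 lower, with 25.9% and 28.6% of all genes. Between Py2T LT and PyMT-1099 LT, 13 were higher in Py2T LT and 14 lower, with 28.1% and 27.5% of all genes. These comparisons share siCtl groups with each other and with the knockdown comparisons, so their values are given side by side and not as support for each other.

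The largest differences between lines were in single enzymes. Hexa, the alpha subunit of the hexosaminidase that degrades GM2 ganglioside, averaged 96.5 ± 6.31 CPM in MT∆Ecad, 50.5 ± 4.09 CPM in Py2T LT and 17.9 ± 3.37 CPM in PyMT-1099 LT (SD, n = 2 each), and MT∆Ecad exceeded PyMT-1099 LT by 2.38 (SE 0.14, limma adjusted p = 3.9e-07) on the log2 scale. Plbd2, a phospholipase B-like protein, averaged 183 ± 8.69 CPM in MT∆Ecad, 88.6 ± 4.86 CPM in Py2T LT and 54.96 ± 1.57 CPM in PyMT-1099 LT, a log2 difference of 1.72 (SE 0.1, limma adjusted p = 3.9e-07) between the same lines. Gaa, the acid alpha-glucosidase that degrades glycogen, averaged 152 ± 8.8 CPM in MT∆Ecad, 119.7 ± 1.47 CPM in Py2T LT and 51.8 ± 2.02 CPM in PyMT-1099 LT, with 1.53 (SE 0.088, limma adjusted p = 2.7e-07). Idua, the iduronidase of heparan and dermatan sulphate, averaged 3.52 ± 0.3 CPM in MT∆Ecad, 1.85 ± 0.249 CPM in Py2T LT and 0.666 ± 0.174 CPM in PyMT-1099 LT, with 1.44 (SE 0.15, limma adjusted p = 2.9e-05). These 4 were lowest in PyMT-1099 LT and highest in MT∆Ecad.

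Lgmn, the asparaginyl endopeptidase that also processes cathepsins, ran the other way between those lines. Lgmn averaged 68.5 ± 2.58 CPM in MT∆Ecad, 15.2 ± 1.03 CPM in Py2T LT and 184 ± 9.61 CPM in PyMT-1099 LT; the log2 difference was −1.41 (SE 0.084, limma adjusted p = 3.6e-07) for MT∆Ecad minus PyMT-1099 LT, 2.10 (SE 0.084, limma adjusted p = 2.7e-08) for MT∆Ecad minus Py2T LT, and −3.51 (SE 0.084, limma adjusted p = 5.9e-10) for Py2T LT minus PyMT-1099 LT, the largest between-line difference of any member. Py2T LT was thus the line with little Lgmn RNA. It was also the line with little Tfeb, which averaged 13.2 ± 1.46 CPM in MT∆Ecad, 2.53 ± 0.428 CPM in Py2T LT and 18.6 ± 1.61 CPM in PyMT-1099 LT, with 2.01 (SE 0.22, limma adjusted p = 3.7e-05) for MT∆Ecad minus Py2T LT and −2.47 (SE 0.22, limma adjusted p = 7.4e-06) for Py2T LT minus PyMT-1099 LT. Ctsh, an aminopeptidase-type cathepsin, was instead highest there. Ctsh averaged 1.01 ± 0.175 CPM in MT∆Ecad, 16.5 ± 0.373 CPM in Py2T LT and 3.83 ± 0.164 CPM in PyMT-1099 LT, with −3.12 (SE 0.13, limma adjusted p = 4.2e-08) for MT∆Ecad minus Py2T LT and 1.86 (SE 0.13, limma adjusted p = 1.6e-06) for Py2T LT minus PyMT-1099 LT.

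Lipa, the acid lipase that frees cholesterol and fatty acids from lipoprotein lipids, averaged 123 ± 22.3 CPM in MT∆Ecad, 34.1 ± 0.66 CPM in Py2T LT and 79.7 ± 0.824 CPM in PyMT-1099 LT, with 1.80 (SE 0.11, limma adjusted p = 6.9e-07) for MT∆Ecad minus Py2T LT. Galc, which degrades galactosylceramide, averaged 68.6 ± 0.729 CPM in MT∆Ecad, 21.4 ± 2.5 CPM in Py2T LT and 31.8 ± 0.346 CPM in PyMT-1099 LT, with 1.64 (SE 0.11, limma adjusted p = 1e-06) between the same lines. Both were lowest in Py2T LT. The beta-mannosidase Manba averaged 20.2 ± 2.35 CPM in MT∆Ecad, 11.5 ± 2.17 CPM in Py2T LT and 55.1 ± 4 CPM in PyMT-1099 LT, with −2.17 (SE 0.16, limma adjusted p = 1.8e-06) for Py2T LT minus PyMT-1099 LT. Ctsz, a carboxypeptidase-type cathepsin, averaged 71.6 ± 5.02 CPM in MT∆Ecad, 52.9 ± 4.85 CPM in Py2T LT and 161 ± 6.71 CPM in PyMT-1099 LT, with −1.59 (SE 0.1, limma adjusted p = 8.6e-07) between the same lines. Manba and Ctsz were highest in PyMT-1099 LT. The galactosidase Gla averaged 36.5 ± 6 CPM in MT∆Ecad, 33.4 ± 1.97 CPM in Py2T LT and 31.2 ± 2.15 CPM in PyMT-1099 LT. For Naglu the means were 25.7 ± 2.86 CPM in MT∆Ecad, 25.5 ± 1.81 CPM in Py2T LT and 30.9 ± 2.85 CPM in PyMT-1099 LT, and for Ids 54.7 ± 4.84 CPM in MT∆Ecad, 44.4 ± 7.01 CPM in Py2T LT and 52.3 ± 1.17 CPM in PyMT-1099 LT. Gla, Naglu and Ids lay within narrow ranges, in contrast to the sulphatase Arsb, which averaged 134 ± 4.79 CPM in MT∆Ecad, 50.97 ± 4.1 CPM in Py2T LT and 74.1 ± 5.99 CPM in PyMT-1099 LT. The glucuronidase Gusb averaged 94.8 ± 0.196 CPM in MT∆Ecad, 145 ± 4.17 CPM in Py2T LT and 76.5 ± 7.41 CPM in PyMT-1099 LT, and Cd63 averaged 295 ± 19.4 CPM in MT∆Ecad, 323 ± 12.2 CPM in Py2T LT and 175 ± 12.4 CPM in PyMT-1099 LT. Gusb and Cd63 were highest in Py2T LT. Asah1 averaged 124 ± 0.12 CPM in MT∆Ecad, 71.2 ± 8.55 CPM in Py2T LT and 113 ± 0.0172 CPM in PyMT-1099 LT, and Ppt1 averaged 81.8 ± 2.07 CPM in MT∆Ecad, 39.2 ± 0.503 CPM in Py2T LT and 46.98 ± 3.37 CPM in PyMT-1099 LT, both highest in MT∆Ecad and lowest in Py2T LT. MT∆Ecad and PyMT-1099 LT did not pass the test for Tfeb (limma adjusted p = 0.094), nor for Npc1 (limma adjusted p = 0.34).

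After siNrf2, more members were called higher than lower. On the average of the 3 lines, which weights them equally, 26 of the 39 members rose and 0 fell in limma's test at an adjusted p of 0.05, where 5.99% of all 12502 tested genes rose and 6.26% fell. The median member had a log2 fold change of 0.28, against −0.01 for all tested genes, and 37 of the 39 had a value above 0. The rises were modest: the largest, of Pla2g15 and Neu1, were 0.61 and 0.61 on the log2 scale, 1.53-fold each. Members that rose numbered 6 of 8 proteases, 9 of 15 glycosidases and sulphatases, 5 of 7 lipid hydrolases and activators, 5 of 7 membrane and cholesterol or ion-handling proteins, and Grn of the pair Grn and Tfeb. All fold changes are on the log2(CPM + 1) scale, which understates changes of low genes such as Idua and Ctsh. The count of 26 became 12 without PyMT-1099 LT siCtl replicate 2 or MT∆Ecad siNrf2 replicate 2, and 14 without Py2T LT siCtl replicate 2 or MT∆Ecad siCtl replicate 1.

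The changes were largest in MT∆Ecad. There 24 members rose and 1, Ctsl, fell, where 8.89% and 8.42% of all tested genes did, and the median member had 0.43 against 0 for all genes. The count of 24 became 5 without MT∆Ecad siNrf2 replicate 2 or siCtl replicate 1, and 9 on the 4 libraries of the line alone. In PyMT-1099 LT 0 members rose and 0 fell at the adjusted threshold, where 0.336% and 0.184% of all genes did, but 25 had an unadjusted p under 0.05, as did 10.2% of all genes, and the median was 0.26 against −0.00. In Py2T LT 0 rose and 0 fell, where 0.056% and 0.096% of all genes did, 3 had an unadjusted p under 0.05, as did 5.39% of all genes, and the median was 0.08 against −0.02. edgeR called 0 members in either of these lines, where it called 0.104% of all genes for PyMT-1099 LT and 0.048% for Py2T LT. DESeq2 called 6 members higher for PyMT-1099 LT, where 0.361% of all genes were, and 0 for Py2T LT, where 0.0163% were. The average over PyMT-1099 LT and Py2T LT alone, a comparison added after the data were seen, called Neu1 only, where 0.224% of all genes rose and 0.344% fell, and its median member had 0.19. In bulk RNA, fewer cells with a transcript and less of it per cell cannot be told apart.

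The replicate numbers were taken to pair the libraries of a line, which no label states. A fit with that assumed pairing called more members and more genes in all. In that blocked fit 23 members rose and Galc fell in PyMT-1099 LT (5.05% and 3.95% of all genes), and Neu1 rose in Py2T LT (0.344%, with 0 members lower against 0.672%). In MT∆Ecad 33 rose and Ctsl fell (21.4% and 21.2%), and on the average 35 rose while Ctsl and Galc fell (19% and 21%). Averaged over PyMT-1099 LT and Py2T LT it called 23 members higher and Galc lower (5.31% and 6.18%).

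**Figure D2:**
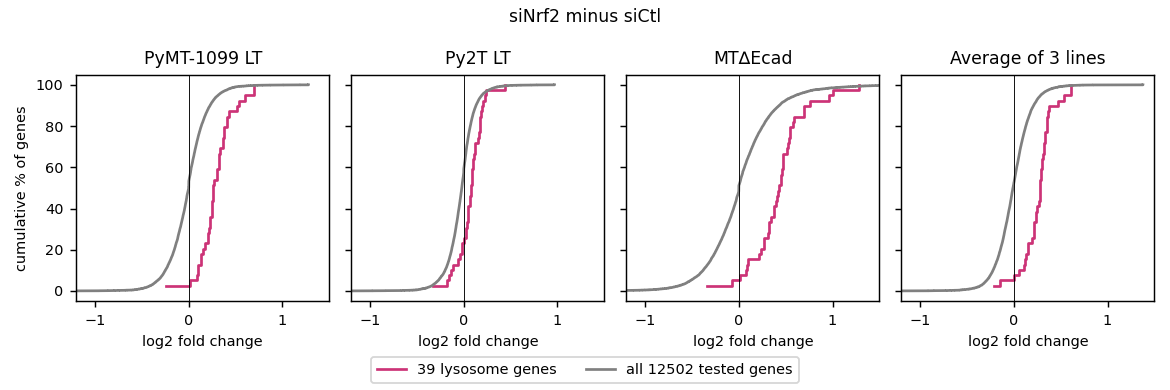
Cumulative percentage of genes against the log2 fold change, siNrf2 minus siCtl, for the 39 members (magenta) and all 12502 tested genes (grey), by line and for the average. The median member lies at 0.26 for PyMT-1099 LT, 0.08 for Py2T LT and 0.43 for MT∆Ecad, to the right of the median of all genes, at −0.00, −0.02 and 0.

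Read library by library, both siNrf2 libraries of MT∆Ecad lay above both siCtl libraries for 34 of 39 members, where this held for 32.5% of all tested genes. In PyMT-1099 LT this held for 32 members, against 20% of all genes, and in Py2T LT for 10, against 7.63%. The 10 members with this order in all 3 lines were Ctsb, Ctsa, Lgmn, Tpp1, Neu1, Ppt1, Pla2g15, Lamp1, Npc1 and Npc2, where 2.39% of all genes had it. Such orders were read on the CPM as deposited and were not rerun with other scalings. Both siNrf2 libraries lay below both siCtl libraries for 1 member in PyMT-1099 LT (17.1% of all genes), for 3 in Py2T LT (15.9%) and for 2 in MT∆Ecad (32.8%). Galc was among them in all 3 lines, where 4.15% of all genes were, with Lipa and Scarb2 in Py2T LT and Ctsl in MT∆Ecad. By sign of the fold change, 38 members were positive for PyMT-1099 LT, 30 for Py2T LT and 37 for MT∆Ecad, where 5881, 5114 and 6125 of the 12502 genes were, and 30 were positive in all 3 lines at once, as were 18% of all genes. The share of all reads taken by the members was 0.840% ± 0.0423 with siNrf2, against 0.656% ± 0.0383 with siCtl, in MT∆Ecad, and 0.603% ± 0.0143 with siNrf2, against 0.504% ± 0.0169 with siCtl, in PyMT-1099 LT. In Py2T LT the share was 0.661% ± 0.0192 with siNrf2, against 0.625% ± 0.0131 with siCtl (SD, n = 2 each).

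Markers of other cell types were read because macrophages are rich in lysosomes. The summed CPM of 10 macrophage markers was 99.8 and 112.9 with siNrf2, against 78.4 and 87.4 with siCtl, in PyMT-1099 LT, and 91.1 and 85.6 with siNrf2, against 71.8 and 68.1 with siCtl, in Py2T LT. In MT∆Ecad, where the members rose most, it was 11.1 and 11.4 with siNrf2, against 9.14 and 12.3 with siCtl. Most of each sum came from Cd14 and Csf1r. Csf1r, the receptor for a macrophage growth factor, was higher in both siNrf2 libraries in each line. Of all tested genes 2.39% had that order in all 3 lines. Csf1r had 42.2 and 42.7 CPM, against 29.6 and 23.6 CPM with siCtl, in PyMT-1099 LT. The values were 23.3 and 33.0 CPM, against 13.9 and 19.0 CPM, in Py2T LT, and 1.92 and 2.12 CPM, against 1.07 and 1.11 CPM, in MT∆Ecad. Cd14 reached 63.7 CPM in Py2T LT, Mrc1 reached 25.4 CPM in PyMT-1099 LT and was at 0 in MT∆Ecad, and Lyz2 and Fcer1g had at most 1.23 and 1.74 CPM. The other 5 markers, Adgre1, Ptprc, Itgam, Cd163 and Tyrobp, had at most 0.135 CPM in any library, Tyrobp being at 0 in all 12. The 5 T and B cell markers and the 3 erythroid markers summed to at most 0.114 and 0.571 CPM. Summed mesenchymal markers were 19091 and 20396 CPM with siNrf2, against 14044 and 14463 CPM with siCtl, in MT∆Ecad. In PyMT-1099 LT this sum was 11571 and 10980 CPM with siNrf2, against 10485 and 10171 CPM with siCtl. In Py2T LT it was 11658 and 11990 CPM, against 10778 and 11621 CPM. Not every marker followed the sum: Zeb2 had 22.9 and 37.4 CPM with siNrf2, against 46.7 and 59.1 CPM with siCtl, in PyMT-1099 LT. Summed epithelial markers were 5442 and 4566 CPM with siNrf2, against 4406 and 3803 CPM with siCtl, in PyMT-1099 LT. The epithelial sum was 3847 and 2989 CPM, against 3238 and 2721 CPM, in Py2T LT. In MT∆Ecad it was 1295 and 1287 CPM, against 1127 and 1232 CPM. Most of it was Krt8 and Krt18. Krt14 was lower with siNrf2 in each line, with 9.83 and 7.97 CPM against 14.4 and 13.1 CPM in PyMT-1099 LT. It had 19.9 and 20.3 CPM against 33.3 and 31.1 CPM in Py2T LT, and 47.4 and 50.1 CPM against 142 and 123 CPM in MT∆Ecad. The summed endothelial markers, of which 1 of 5 passed the filter, were 124.02 and 122.3 CPM with siNrf2, against 90.7 and 88.04 CPM with siCtl, in PyMT-1099 LT. Nearly all of this sum was the cadherin Cdh5, with 123.8 and 122.2 CPM against 90.6 and 87.96 CPM. Pecam1, Kdr, Tie1 and Tek had at most 0.205 CPM in any library. The part of these marker shifts in the members' changes was not tested.

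**Figure D3:**
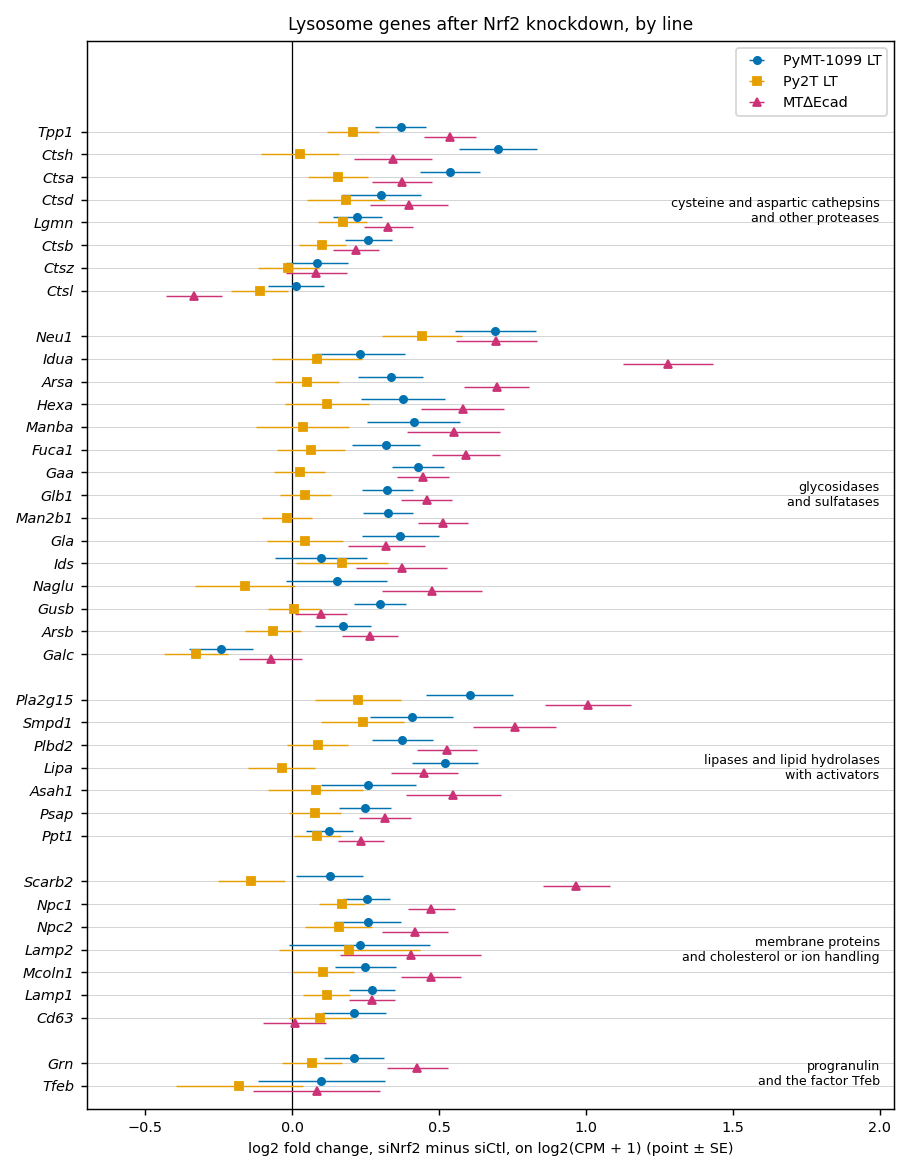
Log2 fold change, siNrf2 minus siCtl, of each of the 39 members by line, grouped by role (points are estimates on log2(CPM + 1) and bars are limma's SE). MT∆Ecad points reach 1.28 for Idua, most Py2T LT points lie near 0, and Galc is below 0 in each line.

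Among the proteases, 6 of 8 rose on the average. Tpp1, the tripeptidyl peptidase lost in a childhood form of neuronal lipofuscinosis, had 123 and 132 CPM with siNrf2, against 95.9 and 101 CPM with siCtl, in PyMT-1099 LT and 73.5 and 85.4 CPM with siNrf2, against 67.3 and 69.8 CPM with siCtl, in Py2T LT. In MT∆Ecad Tpp1 had 172 and 174 CPM with siNrf2, against 117 and 121 CPM with siCtl. Tpp1 rose by 0.37 (SE 0.051, limma adjusted p = 0.004), and both siNrf2 libraries lay above both siCtl libraries in all 3 lines. Ctsa, a carboxypeptidase that also protects the sialidase Neu1 and the galactosidase Glb1, had 118 and 110.3 CPM with siNrf2, against 79.1 and 77.3 CPM with siCtl, in PyMT-1099 LT and 149 and 131 CPM with siNrf2, against 128 and 123 CPM with siCtl, in Py2T LT. In MT∆Ecad Ctsa had 256 and 284 CPM with siNrf2, against 192 and 225 CPM with siCtl. Ctsa rose by 0.36 (SE 0.059, limma adjusted p = 0.0083), and both siNrf2 libraries lay above both siCtl libraries in all 3 lines. For Ctsh the values were 7.68 and 6.09 CPM with siNrf2, against 3.95 and 3.71 CPM with siCtl, in PyMT-1099 LT and 18.02 and 15.7 CPM with siNrf2, against 16.8 and 16.2 CPM with siCtl, in Py2T LT. In MT∆Ecad Ctsh had 1.39 and 1.71 CPM with siNrf2, against 1.13 and 0.886 CPM with siCtl, little RNA in either group. Ctsh rose by 0.36 (SE 0.076, limma adjusted p = 0.02), and both siNrf2 libraries lay above both siCtl libraries in PyMT-1099 LT and MT∆Ecad and overlapped with them in Py2T LT.

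Ctsd, the main aspartic protease of the lysosome, had 709 and 621 CPM with siNrf2, against 561 and 516 CPM with siCtl, in PyMT-1099 LT and 624 and 499.9 CPM with siNrf2, against 530.2 and 456 CPM with siCtl, in Py2T LT. In MT∆Ecad Ctsd had 927 and 1038 CPM with siNrf2, against 699 and 793 CPM with siCtl. Ctsd rose by 0.29 (SE 0.077, limma adjusted p = 0.04); both siNrf2 libraries lay above both siCtl libraries in PyMT-1099 LT and MT∆Ecad and overlapped with them in Py2T LT. For Lgmn there were 219 and 209 CPM with siNrf2, against 191 and 177 CPM with siCtl, in PyMT-1099 LT and 16.9 and 17.7 CPM with siNrf2, against 14.5 and 15.97 CPM with siCtl, in Py2T LT. In MT∆Ecad Lgmn had 85.3 and 86.95 CPM with siNrf2, against 66.7 and 70.4 CPM with siCtl. Lgmn rose by 0.24 (SE 0.048, limma adjusted p = 0.016), and both siNrf2 libraries lay above both siCtl libraries in all 3 lines. Ctsb, an abundant cysteine protease, had 338 and 318 CPM with siNrf2, against 283 and 264 CPM with siCtl, in PyMT-1099 LT and 675 and 627 CPM with siNrf2, against 622 and 589.6 CPM with siCtl, in Py2T LT. In MT∆Ecad Ctsb had 363 and 392 CPM with siNrf2, against 318 and 330.2 CPM with siCtl. Ctsb rose by 0.19 (SE 0.046, limma adjusted p = 0.029), the smallest called rise of a member, and both siNrf2 libraries lay above both siCtl libraries in all 3 lines.

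Some of these calls did not survive the loss of a library. Ctsd lost its call in 11 of the 12 fits that left out 1 library (limma adjusted p 0.052 to 0.117 there) and also without the filter (0.065), with TMM or median-of-ratios scaling (0.053 each) and in edgeR's quasi-likelihood test (adjusted p = 0.060), and Ctsb lost it in 8 (0.052 to 0.089) and in edgeR's test (adjusted p = 0.054). Ctsh lost it in 4 (0.052 to 0.063), those without PyMT-1099 LT siCtl replicate 2, Py2T LT siCtl replicate 2, MT∆Ecad siNrf2 replicate 2 or MT∆Ecad siCtl replicate 2. Lgmn lost it in 3 (0.052 to 0.056), those without PyMT-1099 LT siCtl replicate 2, MT∆Ecad siNrf2 replicate 2 or MT∆Ecad siCtl replicate 1. Exons of Ctsb share 774 bases with Fdft1 on the opposite strand, and whether the authors counted by strand is not given in the sources used here; Fdft1 had an average log2 fold change of −0.08 and did not pass the test.

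The cysteine cathepsin Ctsl was called lower in MT∆Ecad. Ctsl had 378 and 395 CPM with siNrf2, against 381 and 385 CPM with siCtl, in PyMT-1099 LT and 600.1 and 732 CPM with siNrf2, against 717 and 715 CPM with siCtl, in Py2T LT. In MT∆Ecad Ctsl had 176 and 191 CPM with siNrf2, against 227 and 237 CPM with siCtl, and the change was −0.33 (SE 0.096, limma adjusted p = 0.043). On the average it had −0.14 and did not pass limma's test (adjusted p = 0.12), but it fell in the blocked fit (limma adjusted p = 0.025). The fall in MT∆Ecad missed the threshold without any one of 10 of the 12 libraries, without the filter, with TMM scaling, without the mean trend, in edgeR's test and on the 4 libraries of the line alone. Ctsz, with 0.08 for PyMT-1099 LT, −0.01 for Py2T LT and 0.08 for MT∆Ecad, passed no test of siNrf2 against siCtl, nor did its average of 0.05.

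Of the enzymes that take apart glycans, 9 of 15 rose on the average. Neu1, the sialidase that removes terminal sialic acids, had 68.4 and 74.4 CPM with siNrf2, against 40.9 and 46.9 CPM with siCtl, in PyMT-1099 LT and 41.9 and 38.98 CPM with siNrf2, against 31.1 and 27.9 CPM with siCtl, in Py2T LT. In MT∆Ecad Neu1 had 62.98 and 70.6 CPM with siNrf2, against 35.8 and 46.6 CPM with siCtl. Neu1 rose by 0.61 (SE 0.079, limma adjusted p = 0.0033), and both siNrf2 libraries lay above both siCtl libraries in all 3 lines. Idua had 1.13 and 0.786 CPM with siNrf2, against 0.789 and 0.543 CPM with siCtl, in PyMT-1099 LT and 2.13 and 1.90 CPM with siNrf2, against 2.02 and 1.67 CPM with siCtl, in Py2T LT. In MT∆Ecad Idua had 8.58 and 11.5 CPM with siNrf2, against 3.30 and 3.73 CPM with siCtl. Its average was 0.53 (SE 0.089, limma adjusted p = 0.0085), carried by MT∆Ecad with 1.28 (SE 0.15, limma adjusted p = 0.0013); both siNrf2 libraries lay above both siCtl libraries in MT∆Ecad and overlapped with them in PyMT-1099 LT and Py2T LT. Arsa, the sulphatase of sulphatide, had 78.6 and 75.8 CPM with siNrf2, against 57.8 and 64.4 CPM with siCtl, in PyMT-1099 LT and 62.4 and 55.6 CPM with siNrf2, against 56.4 and 57.2 CPM with siCtl, in Py2T LT. In MT∆Ecad Arsa had 126 and 142 CPM with siNrf2, against 75.6 and 89.3 CPM with siCtl. Arsa rose by 0.36 (SE 0.063, limma adjusted p = 0.01) on the average and by 0.70 (SE 0.11, limma adjusted p = 0.004) in MT∆Ecad; both siNrf2 libraries lay above both siCtl libraries in PyMT-1099 LT and MT∆Ecad and overlapped with them in Py2T LT.

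Hexa had 24.8 and 22.002 CPM with siNrf2, against 20.3 and 15.5 CPM with siCtl, in PyMT-1099 LT and 60.1 and 50.1 CPM with siNrf2, against 53.4 and 47.6 CPM with siCtl, in Py2T LT. In MT∆Ecad Hexa had 140.4 and 149 CPM with siNrf2, against 92.1 and 101 CPM with siCtl. Hexa rose by 0.36 (SE 0.082, limma adjusted p = 0.026), and both siNrf2 libraries lay above both siCtl libraries in PyMT-1099 LT and MT∆Ecad and overlapped with them in Py2T LT. Manba had 68.2 and 79.6 CPM with siNrf2, against 52.3 and 57.96 CPM with siCtl, in PyMT-1099 LT and 10.6 and 13.03 CPM with siNrf2, against 9.99 and 13.1 CPM with siCtl, in Py2T LT. In MT∆Ecad Manba had 28.6 and 31.3 CPM with siNrf2, against 18.5 and 21.9 CPM with siCtl. Manba rose by 0.33 (SE 0.091, limma adjusted p = 0.045), and both siNrf2 libraries lay above both siCtl libraries in PyMT-1099 LT and MT∆Ecad and overlapped with them in Py2T LT. Fuca1, which removes fucose, had 66.1 and 59.9 CPM with siNrf2, against 52.6 and 48.1 CPM with siCtl, in PyMT-1099 LT and 27.2 and 24.03 CPM with siNrf2, against 25.98 and 22.96 CPM with siCtl, in Py2T LT. In MT∆Ecad Fuca1 had 48.97 and 56.8 CPM with siNrf2, against 33.6 and 35.7 CPM with siCtl. Fuca1 rose by 0.33 (SE 0.067, limma adjusted p = 0.017), and both siNrf2 libraries lay above both siCtl libraries in PyMT-1099 LT and MT∆Ecad and overlapped with them in Py2T LT.

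Gaa had 69.01 and 70.97 CPM with siNrf2, against 50.3 and 53.2 CPM with siCtl, in PyMT-1099 LT and 127 and 116 CPM with siNrf2, against 121 and 119 CPM with siCtl, in Py2T LT. In MT∆Ecad Gaa had 195 and 219 CPM with siNrf2, against 146 and 158 CPM with siCtl. Gaa rose by 0.30 (SE 0.051, limma adjusted p = 0.0089), and both siNrf2 libraries lay above both siCtl libraries in PyMT-1099 LT and MT∆Ecad and overlapped with them in Py2T LT. Glb1, the beta-galactosidase used as a marker of senescent cells, had 60.3 and 58.3 CPM with siNrf2, against 47.1 and 47.2 CPM with siCtl, in PyMT-1099 LT and 62.6 and 59.1 CPM with siNrf2, against 60.8 and 57.2 CPM with siCtl, in Py2T LT. In MT∆Ecad Glb1 had 73.4 and 83.1 CPM with siNrf2, against 55.4 and 57.8 CPM with siCtl. Glb1 rose by 0.28 (SE 0.05, limma adjusted p = 0.011), and both siNrf2 libraries lay above both siCtl libraries in PyMT-1099 LT and MT∆Ecad and overlapped with them in Py2T LT. Man2b1, the alpha-mannosidase, had 99.6 and 104 CPM with siNrf2, against 79.6 and 82.3 CPM with siCtl, in PyMT-1099 LT and 97.004 and 89.2 CPM with siNrf2, against 96.3 and 92.2 CPM with siCtl, in Py2T LT. In MT∆Ecad Man2b1 had 64.2 and 70.4 CPM with siNrf2, against 45.2 and 48.6 CPM with siCtl. Man2b1 rose by 0.27 (SE 0.049, limma adjusted p = 0.011), and both siNrf2 libraries lay above both siCtl libraries in PyMT-1099 LT and MT∆Ecad and overlapped with them in Py2T LT.

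Manba lost its call in 10 of the 12 fits that left out 1 library (limma adjusted p 0.058 to 0.129), with a pseudocount of 0.1 (0.056) and without the filter (0.065). Hexa lost it in 6 fits (0.052 to 0.082). Fuca1 lost it in 4 (0.053 to 0.058), those without PyMT-1099 LT siCtl replicate 2, Py2T LT siCtl replicate 2, MT∆Ecad siNrf2 replicate 2 or MT∆Ecad siCtl replicate 1. Neu1, Idua, Arsa, Gaa, Glb1 and Man2b1 passed in all 12.

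The 6 others of this class did not pass the test on the average, with log2 fold changes from −0.21 to 0.24. Gla, the alpha-galactosidase, had 0.24 (limma adjusted p = 0.066), the sulphatases Ids and Arsb 0.21 and 0.12, the glucosaminidase Naglu 0.16 and the glucuronidase Gusb 0.13. All 5 were called higher in the blocked fit, with adjusted p of 0.012 for Gla, 0.0050 for Ids, 0.017 for Arsb, 0.036 for Naglu and 0.0072 for Gusb. Galc stood on the other side of 0 in each line. Galc had 25.8 and 27.7 CPM with siNrf2, against 31.5 and 32.02 CPM with siCtl, in PyMT-1099 LT and 15.5 and 18.2 CPM with siNrf2, against 19.7 and 23.2 CPM with siCtl, in Py2T LT. In MT∆Ecad Galc had 65.97 and 64.3 CPM with siNrf2, against 69.1 and 68.1 CPM with siCtl. The average of Galc was −0.21 (SE 0.063, limma adjusted p = 0.056), and both siNrf2 libraries lay below both siCtl libraries in all 3 lines; the blocked fit called it lower (limma adjusted p = 0.0034).

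**Figure D4:**
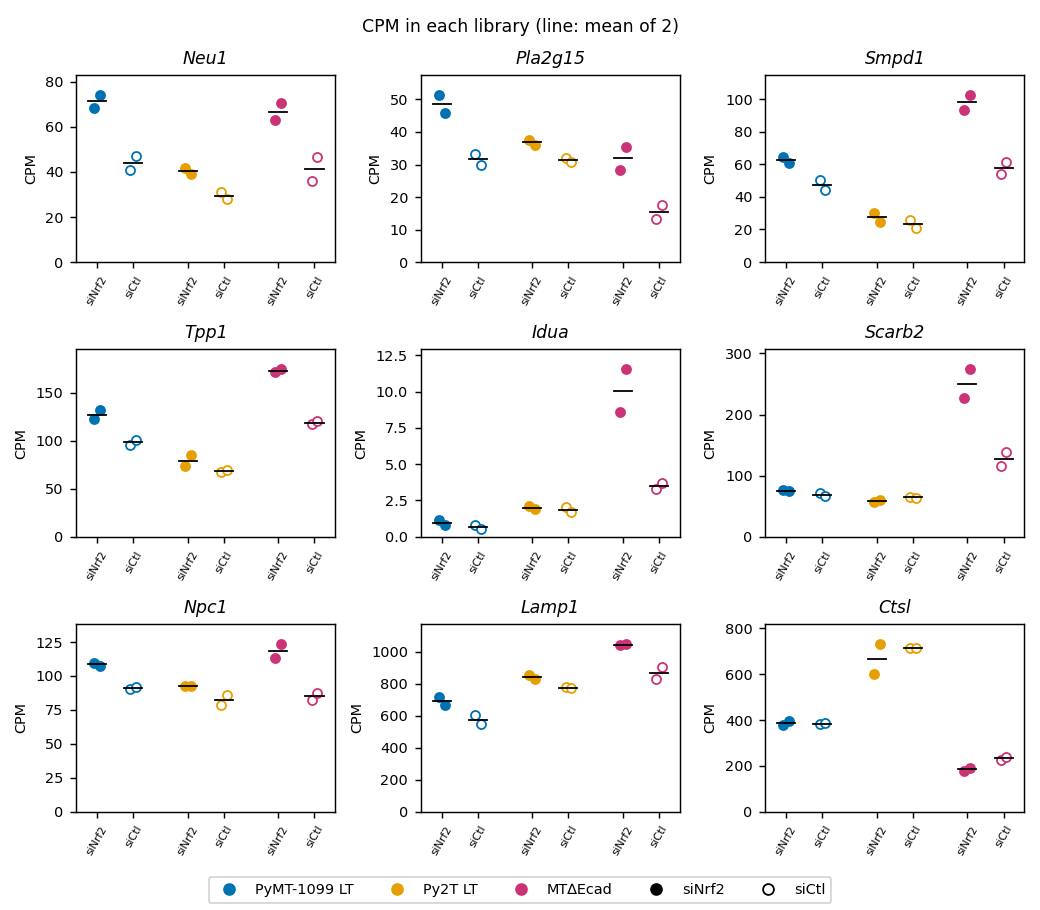
CPM of 9 members in each library (filled points siNrf2, open points siCtl, lines the mean of 2 libraries), by line, with linear axes from 0. Neu1, Pla2g15, Tpp1, Npc1 and Lamp1 have both siNrf2 points above both siCtl points in all 3 lines, Idua and Scarb2 rise mainly in MT∆Ecad, and Ctsl is lower there.

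Enzymes of lipids and their activators rose in 5 of 7 cases. Pla2g15, the lysosomal phospholipase A2, had 51.5 and 45.8 CPM with siNrf2, against 33.4 and 29.97 CPM with siCtl, in PyMT-1099 LT and 37.5 and 36.1 CPM with siNrf2, against 31.98 and 30.8 CPM with siCtl, in Py2T LT. In MT∆Ecad Pla2g15 had 28.4 and 35.4 CPM with siNrf2, against 13.3 and 17.5 CPM with siCtl. Pla2g15 rose by 0.61 (SE 0.085, limma adjusted p = 0.0043) on the average and by 1.01 (SE 0.15, limma adjusted p = 0.003) in MT∆Ecad; both siNrf2 libraries lay above both siCtl libraries in all 3 lines. Smpd1, the acid sphingomyelinase, had 64.5 and 60.98 CPM with siNrf2, against 50.3 and 44.02 CPM with siCtl, in PyMT-1099 LT and 30.3 and 24.7 CPM with siNrf2, against 25.7 and 20.6 CPM with siCtl, in Py2T LT. In MT∆Ecad Smpd1 had 93.1 and 103 CPM with siNrf2, against 53.7 and 61.4 CPM with siCtl. Smpd1 rose by 0.47 (SE 0.082, limma adjusted p = 0.01) on the average and by 0.76 (SE 0.14, limma adjusted p = 0.008) in MT∆Ecad; both siNrf2 libraries lay above both siCtl libraries in PyMT-1099 LT and MT∆Ecad and overlapped with them in Py2T LT. Plbd2 had 74.6 and 68.6 CPM with siNrf2, against 56.1 and 53.8 CPM with siCtl, in PyMT-1099 LT and 103 and 85.8 CPM with siNrf2, against 92.1 and 85.2 CPM with siCtl, in Py2T LT. In MT∆Ecad Plbd2 had 255 and 274 CPM with siNrf2, against 177 and 189.6 CPM with siCtl. Plbd2 rose by 0.33 (SE 0.06, limma adjusted p = 0.011); both siNrf2 libraries lay above both siCtl libraries in PyMT-1099 LT and MT∆Ecad and overlapped with them in Py2T LT.

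Lipa had 112 and 118 CPM with siNrf2, against 80.3 and 79.2 CPM with siCtl, in PyMT-1099 LT and 33.1 and 33.3 CPM with siNrf2, against 34.5 and 33.6 CPM with siCtl, in Py2T LT. In MT∆Ecad Lipa had 162 and 171 CPM with siNrf2, against 107 and 138 CPM with siCtl. Lipa rose by 0.31 (SE 0.065, limma adjusted p = 0.018); both siNrf2 libraries lay above both siCtl libraries in PyMT-1099 LT and MT∆Ecad and below both in Py2T LT. Psap had 863 and 808 CPM with siNrf2, against 735 and 673 CPM with siCtl, in PyMT-1099 LT and 1420.1 and 1294 CPM with siNrf2, against 1321 and 1252 CPM with siCtl, in Py2T LT. In MT∆Ecad Psap had 1151 and 1274 CPM with siNrf2, against 946 and 1002 CPM with siCtl. Psap rose by 0.21 (SE 0.051, limma adjusted p = 0.03); both siNrf2 libraries lay above both siCtl libraries in PyMT-1099 LT and MT∆Ecad and overlapped with them in Py2T LT. The ceramidase Asah1 and the palmitoyl-protein thioesterase Ppt1 did not pass, with 0.30 and 0.15 (limma adjusted p = 0.071 and 0.067), but were called higher in the blocked fit (limma adjusted p = 0.0044 and 0.011). Asah1 rose in MT∆Ecad, by 0.55 (SE 0.16, limma adjusted p = 0.048). Exons of Ppt1 share 129 bases with Cap1 on the opposite strand, which rose by 0.19 on the average.

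Psap lost its average call in 9 of the 12 fits that left out 1 library (limma adjusted p 0.051 to 0.095), without the filter (0.061) and in edgeR's quasi-likelihood test (0.053). Lipa lost it in 4 (0.050 to 0.061), those without either PyMT-1099 LT siCtl library, Py2T LT siCtl replicate 2 or MT∆Ecad siNrf2 replicate 2. In MT∆Ecad, the call of Smpd1 was lost without siNrf2 replicate 2 (0.075) or siCtl replicate 1 (0.077). On the 4 libraries of MT∆Ecad alone, the adjusted p was 0.067 for Pla2g15, 0.057 for Arsa and 0.051 for Scarb2.

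Of the 7 membrane and cholesterol or ion-handling proteins, 5 rose. Scarb2, a membrane protein of the lysosome, had 76.8 and 74.2 CPM with siNrf2, against 71.8 and 66.4 CPM with siCtl, in PyMT-1099 LT and 56.4 and 60.9 CPM with siNrf2, against 65.2 and 64.1 CPM with siCtl, in Py2T LT. In MT∆Ecad Scarb2 had 227 and 274 CPM with siNrf2, against 117 and 138 CPM with siCtl. Its average was 0.32 (SE 0.066, limma adjusted p = 0.018) and its change in MT∆Ecad 0.97 (SE 0.11, limma adjusted p = 0.0012); both siNrf2 libraries lay above both siCtl libraries in PyMT-1099 LT and MT∆Ecad and below both in Py2T LT. Npc1 and Npc2 pass cholesterol out of the lysosome. Npc1 had 109 and 108 CPM with siNrf2, against 90.2 and 91.5 CPM with siCtl, in PyMT-1099 LT and 92.8 and 92.8 CPM with siNrf2, against 78.8 and 86.1 CPM with siCtl, in Py2T LT. In MT∆Ecad Npc1 had 113 and 124 CPM with siNrf2, against 82.6 and 87.4 CPM with siCtl. Npc1 rose by 0.30 (SE 0.046, limma adjusted p = 0.0061), and both siNrf2 libraries lay above both siCtl libraries in all 3 lines. Npc2 had 228 and 189 CPM with siNrf2, against 183 and 164 CPM with siCtl, in PyMT-1099 LT and 225 and 212 CPM with siNrf2, against 200.3 and 191 CPM with siCtl, in Py2T LT. In MT∆Ecad Npc2 had 305 and 343 CPM with siNrf2, against 228 and 257 CPM with siCtl. Npc2 rose by 0.28 (SE 0.065, limma adjusted p = 0.028), and both siNrf2 libraries lay above both siCtl libraries in all 3 lines.

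Mcoln1, the calcium channel of the lysosomal membrane, had 33.5 and 32.5 CPM with siNrf2, against 28.4 and 26.9 CPM with siCtl, in PyMT-1099 LT and 35.4 and 29.97 CPM with siNrf2, against 31.6 and 28.9 CPM with siCtl, in Py2T LT. In MT∆Ecad Mcoln1 had 35.8 and 38.2 CPM with siNrf2, against 25.7 and 27.1 CPM with siCtl. Mcoln1 rose by 0.27 (SE 0.06, limma adjusted p = 0.021); both siNrf2 libraries lay above both siCtl libraries in PyMT-1099 LT and MT∆Ecad and overlapped with them in Py2T LT. Lamp1 had 716 and 667 CPM with siNrf2, against 601 and 544 CPM with siCtl, in PyMT-1099 LT and 851 and 826 CPM with siNrf2, against 776 and 770.0 CPM with siCtl, in Py2T LT. In MT∆Ecad Lamp1 had 1041 and 1047 CPM with siNrf2, against 827 and 903 CPM with siCtl. Lamp1 rose by 0.22 (SE 0.046, limma adjusted p = 0.017), and both siNrf2 libraries lay above both siCtl libraries in all 3 lines. Its partner Lamp2 did not pass, with 229 and 317 CPM with siNrf2, against 219 and 242 CPM with siCtl, in PyMT-1099 LT and 119 and 194 CPM with siNrf2, against 112 and 157 CPM with siCtl, in Py2T LT. In MT∆Ecad Lamp2 had 392 and 390.4 CPM with siNrf2, against 302 and 289.6 CPM with siCtl. The replicates of Lamp2 lay far apart in the PyMT-derived lines, its average was 0.28 (SE 0.14, limma adjusted p = 0.23), and within numbered pairs siNrf2 was above siCtl in all 6, so that the blocked fit called it higher (limma adjusted p = 0.0053). Cd63, a tetraspanin of late endosomes, had 0.10 (limma adjusted p = 0.32, 0.047 in the blocked fit).

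Npc2 lost its average call in 7 of the 12 fits that left out 1 library (limma adjusted p 0.051 to 0.089) and Mcoln1 in 5 (0.054 to 0.069). Lamp1 (0.052 to 0.061) and Scarb2 (0.051 to 0.055) lost it in the same 4 as Fuca1. Over PyMT-1099 LT and Py2T LT alone the average of Scarb2 was −0.01, against 0.32 over all 3 lines. Npc1 passed in all 12.

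Grn, the precursor of granulins, had 213 and 204 CPM with siNrf2, against 177 and 184 CPM with siCtl, in PyMT-1099 LT and 235 and 206 CPM with siNrf2, against 211 and 209 CPM with siCtl, in Py2T LT. In MT∆Ecad Grn had 415 and 480.3 CPM with siNrf2, against 311 and 355 CPM with siCtl. Grn rose by 0.23 (SE 0.059, limma adjusted p = 0.035); both siNrf2 libraries lay above both siCtl libraries in PyMT-1099 LT and MT∆Ecad and overlapped with them in Py2T LT. It lost this call in 9 of the 12 fits that left out 1 library (limma adjusted p 0.060 to 0.106) and in edgeR's test (0.056). Tfeb, the factor known to drive lysosome genes, had 21.3 and 18.6 CPM with siNrf2, against 17.4 and 19.7 CPM with siCtl, in PyMT-1099 LT and 2.97 and 1.42 CPM with siNrf2, against 2.23 and 2.83 CPM with siCtl, in Py2T LT. In MT∆Ecad Tfeb had 12.99 and 15.05 CPM with siNrf2, against 12.1 and 14.2 CPM with siCtl. The groups overlapped in every line, and the average of Tfeb was 0.00 (SE 0.12, limma adjusted p = 1), with 0.10 for PyMT-1099 LT, −0.18 for Py2T LT and 0.08 for MT∆Ecad.

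Exon overlaps bear on some of these values, since the strand setting is not known. Exons of Ctsl share 1742 bases with the antisense gene Gm47123, those of Ctsa 495 with Pltp, which had a log2 fold change of 0.67 in MT∆Ecad, and those of Idua 124 with Dgkq, which had 0.16 there. Exons of Arsb share 1948 bases (32.3% of its exon bases) with the antisense lincRNA Gm26527, and those of Arsa 690 (18.8%) with C230037L18Rik. Reads of such pairs cannot be told apart without strand. Exons of Npc1 share 511 bases (4.5%) with Rmc1 on the opposite strand, which had an average log2 fold change of 0.12. Exons of Ctsd share 808 bases (34.4%) with Gm49369 on the same strand, which a strand setting would not separate. The same holds for Glb1, whose exons share 165 bases (5.5%) with Tmppe. Tmppe had log2 fold changes of 0.29 for PyMT-1099 LT, 0.14 for Py2T LT and 0.07 for MT∆Ecad.

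The size of the change differed between lines for 2 members. By limma's F test over the lines, Scarb2 (adjusted p = 0.021) and Idua (0.040) differed, where 2.18% of all tested genes did. The Scarb2 effect was larger in MT∆Ecad than in PyMT-1099 LT by 0.84 (95% interval 0.47 to 1.21, limma adjusted p = 0.04) and than in Py2T LT by 1.11 (95% interval 0.74 to 1.47, limma adjusted p = 0.012). For Idua the differences were 1.05 (95% interval 0.56 to 1.54, limma adjusted p = 0.051) and 1.20 (95% interval 0.71 to 1.69, limma adjusted p = 0.026). Pair by pair, 1 member had a larger effect in MT∆Ecad than in PyMT-1099 LT and 0 a smaller one, where 1.16% and 0.648% of all genes did. Against Py2T LT 3 had a larger one in MT∆Ecad, Scarb2, Idua and Man2b1, and 0 a smaller one, where 2.54% and 0.96% of all genes did. Between Py2T LT and PyMT-1099 LT 0 members differed, where 0.008% of all genes were higher and 0% lower. For the others the p missed the threshold, which does not show that the lines act alike: for Lipa the MT∆Ecad minus Py2T LT difference was 0.49 (95% interval 0.13 to 0.85) and the Py2T LT minus PyMT-1099 LT difference −0.56 (95% interval −0.92 to −0.20).

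This count rests on few libraries and on the fit. Leaving out 1 library gave 0 to 2 members by the F test, and 0 without PyMT-1099 LT siCtl replicate 1, either Py2T LT siCtl library, MT∆Ecad siNrf2 replicate 2 or MT∆Ecad siCtl replicate 1. The blocked fit called 18 members, where 19% of all genes were called, edgeR called 0, where 0.16% were, and DESeq2 1, where 2.29% were. By pairs, the blocked fit called 22 members larger in MT∆Ecad than in Py2T LT (13.4% of all genes, with 0 smaller against 9.49%) and 4 larger than in PyMT-1099 LT (7.05%, with 0 smaller against 7.43%).

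Other lysosomal genes, from 7 further lists, were read beside the members. Of 32 other hydrolases and activators 13 rose and 1 fell on the average, with a median of 0.22. Examples are Ctso, another cysteine cathepsin (0.60), the fucosidase Fuca2 (0.43) and Smpdl3a, a relative of acid sphingomyelinase (0.41). Smpdl3a reached 1 CPM in only 4 libraries. Its average was carried by MT∆Ecad with 1.13, against 0 for PyMT-1099 LT and 0.08 for Py2T LT. Of 30 other membrane proteins 14 rose and 1 fell (median 0.21), including the cystine exporter Ctns (0.56), the chloride channel subunit Ostm1 (0.45) and Cyb561a3 (0.41). Of 19 subunits of the proton pump that acidifies the lysosome 8 rose and 0 fell (median 0.19), led by Atp6v0d1 (0.71), Atp6v0a1 (0.41), Atp6v1a (0.37) and Atp6ap1 (0.34). The share that rose was 40.6%, 46.7% and 42.1% of these lists, against 66.7% of the members and 5.99% of all tested genes.

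Genes for delivery and control of lysosomes had lower list medians, between 0.07 and 0.15, where 5.99% of all tested genes rose and 6.26% fell. Of 28 genes of mannose 6-phosphate tagging, sorting and vesicle delivery 3 rose and 2 fell (median 0.10): Vps18 of the tethering complexes (0.31) and Gnptg of the tagging enzyme (0.25) rose, whereas the sorting receptors Sort1 (−0.24) and Igf2r (−0.22) fell. Sort1 reached 1 CPM in only 4 libraries, against 12 for Igf2r. It had 0.01 for PyMT-1099 LT, −0.30 for Py2T LT and −0.44 for MT∆Ecad. On the average, of 23 MiT/TFE factors and nutrient-sensing genes 3 rose and 0 fell (median 0.07), the folliculin gene Flcn (0.28), Lamtor4 (0.28) and Mtor (0.18). Of 39 autophagy genes 5 rose and 0 fell (median 0.09), including Gabarap (0.43), Vamp8 (0.39), Optn (0.25) and Nbr1 (0.22). Of 5 cathepsin inhibitors 2 rose, Cstb (0.18) and Serpinb6a (0.17), and Cst6 fell (−0.46). Their limma adjusted p lay between 0.0023 for Atp6v0d1 and 0.049 for Optn.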

How the data were processed

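The authors deposited CPM for 24454 Entrez gene IDs in 12 libraries, of which 24374 matched a RefSeq symbol of GRCm38.p6. Per the labels' protocols, the libraries were stranded and rRNA-depleted and gave single reads; the submitters' processing notes name STAR and mm10, and the counting tool and its strand setting are not given in the sources used here. Within 0.01 of a read, 100% of the CPM values were whole reads, which gave the depths and a count test. Genes with at least 1 CPM in at least 2 libraries were compared as log2(CPM + 1) by limma (version 3.58.1, R 4.3.3), fitting 6 group means, a mean trend and 6 residual degrees of freedom. Tests were two-sided, with Benjamini-Hochberg adjustment over 12502 genes and a threshold of 0.05, and p-values measure the spread between these cultures only. Contrasts were siNrf2 minus siCtl by line, their average, its difference between lines, and siCtl levels between lines. edgeR (4.0.16) and DESeq2 (1.42.0) on the recovered reads, other pseudocounts, filters and scalings, single lines and leaving out each library were alternatives.

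siNrf2 and siCtl libraries share replicate numbers whose meaning no label gives. Deviations from group means correlated between same-numbered libraries of a line. Pearson's r across genes was 0.778 for PyMT-1099 LT, 0.846 for Py2T LT and 0.625 for MT∆Ecad. Same-numbered libraries of PyMT-1099 LT and Py2T LT also correlated with each other, with r from 0.558 to 0.792. Between MT∆Ecad and these lines r lay between −0.413 and −0.0169. In the PyMT-derived lines r within a line thus does not by itself show pairs. Treating same-numbered libraries of a line as pairs remains an assumption. The blocked fit has the replicate number within line as a block and 3 residual degrees of freedom.

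Full statistics were given for members called on the average, the 5 largest called changes of each line and of each siCtl comparison, members called by the F test, and the 4 largest called changes of each further list; other members named were chosen after their values were seen. Some genes of the further lists that this rule names are not reported here. The members, lists and tests were chosen with earlier results of these data known. The fit was tried on simulated data that held no effect of the replicate number. Since same-numbered libraries correlated in the real data, that trial does not show how the fit performs on them.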

Additional observations from a re-analysis of the deposited data

Results flagged for a closer look

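The siNrf2 effect differed between lines for Scarb2 (limma F test, adjusted p = 0.021), with log2 fold changes of 0.13 for PyMT-1099 LT, −0.14 for Py2T LT and 0.97 for MT∆Ecad. The same test passed for Idua (adjusted p = 0.0402), with 0.23, 0.08 and 1.28 in the same lines. For Lipa the order of the libraries differed between lines. Both siNrf2 libraries lay above both siCtl libraries in PyMT-1099 LT and in MT∆Ecad, with log2 fold changes of 0.52 and 0.45. In Py2T LT both lay below, but Lipa changed little there, with a log2 fold change of −0.04. Its values in Py2T LT were 33.1 and 33.3 CPM with siNrf2, against 34.5 and 33.6 CPM with siCtl. The test of the difference between lines did not pass for Lipa (limma F test, adjusted p = 0.17; 0.022 in the blocked fit). Groups of 2 libraries are too small for a search for outlying samples.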

How the results depend on the processing

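On the average, the count of members that rose was 26 and lay between 22 and 35 under other pseudocounts, filters, scalings, variance models, edgeR, DESeq2 and the replicate block; without 1 library it ranged from 12 to 26, with 12 without PyMT-1099 LT siCtl replicate 2 or MT∆Ecad siNrf2 replicate 2, and 14 without Py2T LT siCtl replicate 2 or MT∆Ecad siCtl replicate 1. Of the 26, 12 kept the call in each of those fits and 14 lost it in at least 1. Over PyMT-1099 LT and Py2T LT alone 1 member was called, and Scarb2 turned to −0.006452. The count that fell was 0, 2 with the replicate block, and 0 to 2 without 1 library. In MT∆Ecad 24 rose, 9 on that line's 4 libraries alone and 5 to 25 without 1 library (5 without its siNrf2 replicate 2 or siCtl replicate 1), and 33 with the replicate block; the 1 that fell became 0 without the filter, with TMM scaling, without the mean trend, in edgeR and on the line's 4 libraries, and 0 to 1 without 1 library. In PyMT-1099 LT 0 rose, but 1 with a pseudocount of 5, 6 in DESeq2 and 23 with the replicate block, which also gave 1 that fell; in Py2T LT the block gave 1 that rose. By the F test 2 members differed between lines, 1 with a pseudocount of 0.1, without the filter or in DESeq2, 0 in edgeR, 18 with the replicate block, and 0 to 2 without 1 library. For Idua, siNrf2 minus siCtl in Py2T LT, the log2 fold change ranged from −0.005712 (without Py2T LT siCtl replicate 2) to 0.1726 (without its siCtl replicate 1). On the 4 libraries of a line alone Nfe2l2 missed the threshold in PyMT-1099 LT and Py2T LT (limma adjusted p 0.46 and 1). The members' gain in share of reads without Psap, Lamp1 and Ctsd was 0.0612 percentage points for PyMT-1099 LT (0.0989 with them), 0.015 for Py2T LT (0.0355) and 0.118 for MT∆Ecad (0.184). The cause of these moves was not tested, beyond the fewer libraries that some fits hold. The counts of siCtl differences between lines stayed within 1.5 times under each alternative run. The replicate block changed no other call than those counted or named in the text.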
